A study of Caenorhabditis elegans with 16 samples.

Results

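RNA of whole Caenorhabditis elegans that carried the copper pump allele cua-1(H828Q) and grew on copper was compared with RNA of control worms on plates with no added copper. Genotype and copper both differ between these groups, so the comparison measures their joint effect. The copper-treated mutant spent 3 days at 20 °C on nematode growth medium with 100 µM CuCl2, and the untreated control spent the same time at the same temperature with 0 µM added. All plates carried Escherichia coli OP50 as food, and the worms had been synchronized. Each group has 4 libraries that the labels call biological replicates, so 8 of the 16 libraries of the series belong to the comparison. The other 8, the untreated mutant and the copper-treated control with 4 each, enter the shared estimate of spread. No strain name is given for the control, so a shared genetic background is assumed and not shown. They also do not say whether the mutant strain was backcrossed. The assay counts 3′ ends of messenger RNA, which cannot read a missense allele, so the counts hold no check of the genotype. Of 46904 genes in the table, 9787 had enough counts to be tested.

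In worms, the copper pump CUA-1 is an ATPase related to the human pumps that are defective in Menkes and Wilson disease. Such pumps load copper into secreted enzymes and move excess copper out of cells. The gut of the worm is the organ of digestion, of yolk synthesis and of much of the innate defence against ingested microbes. Yolk proteins, digestive proteases, lysozymes and secreted defence peptides are therefore all read in RNA of the whole animal.

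Library totals ran between 3652007 and 3913954 counts in the copper-treated mutant and between 2339604 and 3348080 in the untreated control. The CPM values of genes below are counts relative to the library size, with sizes scaled by TMM. On unscaled totals, a floor of 3 counts was worth 0.766 to 0.821 CPM in the copper-treated mutant and 0.896 to 1.28 CPM in the untreated control. On the TMM scale it is higher where the scaling factor is below 1. Those libraries are copper-treated mutant replicate 4 (0.7529) and untreated control replicates 1, 3 and 4 (0.6529, 0.7955 and 0.7625). In the other libraries of both groups it is lower. Some libraries held few counts of long transcripts: the median log2 CPM of genes over 3000 bp minus that of genes under 800 bp was below -0.5 in 5 of the 16 libraries, here called long-depleted. They were copper-treated mutant replicate 4 (-2.19), untreated control replicates 1, 3 and 4 (-2.07, -0.92 and -0.6) and copper-treated control replicate 1 (-0.78), while the other 11 ran between 0.23 and 1.14. The class therefore holds 1 of 4 copper-treated mutant libraries and 3 of 4 untreated control libraries, and the first principal component (47.5% of the variance) separated it from the rest. Values from a fit without these 5 libraries stand beside many of the results below. In that fit the untreated control is replicate 2 alone, whose spread is then taken from the remaining groups. Lists of gut, muscle and neuron markers were counted in all 8 libraries.

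At a Benjamini-Hochberg adjusted p under 0.05 in edgeR's quasi-likelihood test, 597 of 9787 genes were called (6.1%). Of these, 469 were higher in the copper-treated mutant (4.79%) and 128 were lower (1.31%). Counts for gene lists in this fit are to be read against these shares. Fitted changes of called genes were mostly large, at a median log2 fold change of 1.83 for those higher and -1.72 for those lower. The threshold favours large values, and the median over all tested genes was 0.014. A fold above 2 was fitted for 451 of the 469 and for 118 of the 128. A test against an absolute log2 fold change of 1 left 69 genes, 52 higher and 17 lower. In 478 of the 597 called genes, no library of one group reached into the range of the other. Over all 9787 tested genes, called or not, 668 stood clear in this way on the higher side and 264 on the lower side. The calls rest on the same values, so this count is no separate support for them. In bulk RNA, fewer cells of a type and less RNA per cell cannot be told apart. Removing each library's trend of counts on transcript length gave 616 higher and 372 lower, a share of 62.3% higher against 78.6%, and a covariate for the long-short balance gave 62.1%. Leaving out the 5 long-depleted libraries gave 1079 higher and 496 lower, with all 469 higher and 127 of the 128 lower genes keeping their sign, and 461 genes called again in the same direction. The remaining libraries had also entered the calls, so the kept signs are no independent check. List counts without the 5 libraries are to be read against the larger totals of that fit, not against 4.79% and 1.31%. They rest on 1 untreated control library. A fit to the 8 libraries alone, with fewer degrees of freedom, called 106 higher and 24 lower, so it ended most calls, including many of those named below.

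**Figure D1:**
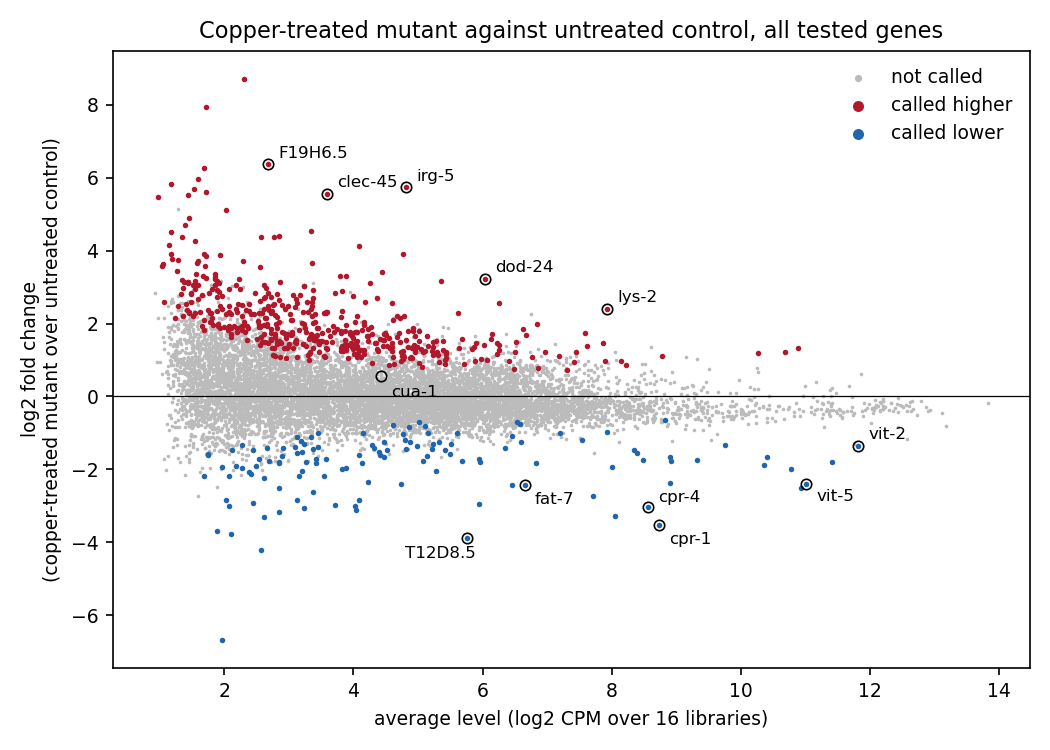
Each point is 1 of 9787 tested genes, with the average level over 16 libraries in log2 CPM on the horizontal axis and the fitted log2 fold change of the copper-treated mutant over the untreated control on the vertical axis; red marks genes called higher, blue genes called lower and grey the rest, and fits of genes with 0 counts in a group depend on the prior count. The 469 red points outnumber the 128 blue ones, while among the most abundant genes the yolk protein genes vit-2 and vit-5 lie below 0.

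**Figure D2:**
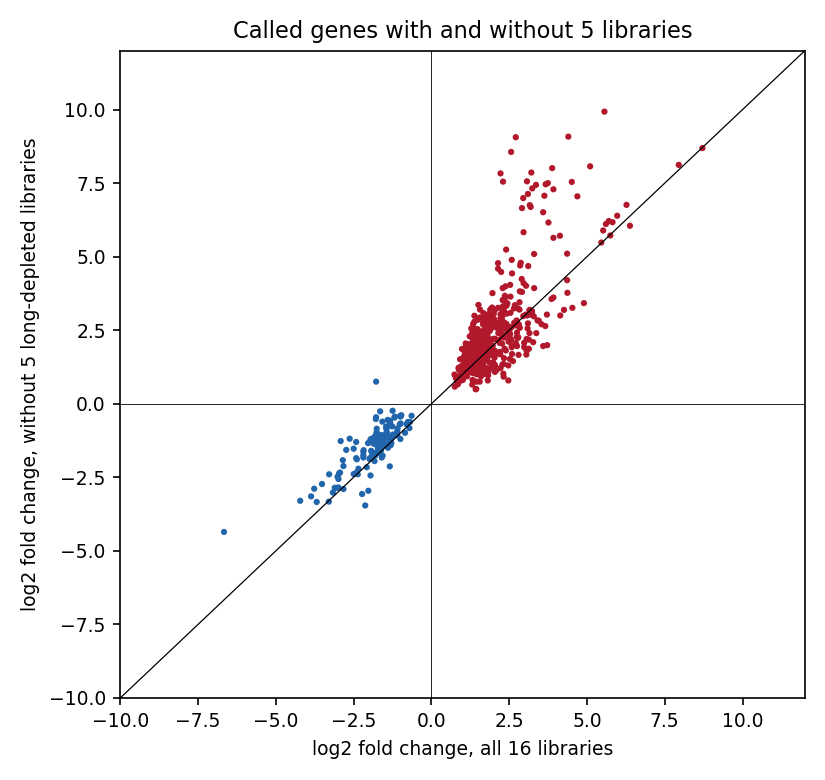
Each point is 1 of the 597 called genes, with its log2 fold change over all 16 libraries on the horizontal axis and its value without the 5 long-depleted libraries on the vertical axis; red marks genes called higher, blue genes called lower, and the diagonal is equality. All points but 1 keep their sign, which is no independent check because the fits on both axes share libraries. Genes called higher have a median of 2.09 without the long-depleted libraries against 1.83 with them, and genes called lower -1.34 against -1.72.

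The targeted gene cua-1 (WBGene00000834), on the minus strand of chromosome III between 13439730 and 13455307 in WBcel235, was not called. It had 17.7, 21.3, 24 and 7.67 CPM in the copper-treated mutant libraries, against 5.05, 22.1, 8.82 and 11.2 CPM in the untreated control libraries. The groups overlapped, and the lowest library of each group was the one with the fewest long transcripts, the gene itself being long. Its log2 fold change was 0.56 ± 0.43 (model standard error; adjusted p = 0.454), and -0.14 without the long-depleted libraries (adjusted p = 0.805).

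None of the 15 tested genes of copper handling and none of the 13 tested genes of the metal response passed the test in edgeR, with median log2 fold changes of -0.66 and 0.19. Without the long-depleted libraries 1 copper gene was called higher and 1 lower, and 2 metal response genes lower. The copper chaperone gene cuc-1 came closest in the copper list. It had 29.7, 27.7, 22.8 and 64.6 CPM in the copper-treated mutant, against 130.4, 50.8, 76.7 and 56.7 CPM in the untreated control. Mutant replicate 4 reached into the control range, and the log2 fold change was -1.12 ± 0.34 (adjusted p = 0.06). The metallothionein gene mtl-2, which encodes a metal-binding protein of the gut, had 18.7, 25, 19.9 and 49.6 CPM in the copper-treated mutant, against 179, 43, 98.8 and 35.4 CPM in the untreated control. Its values also overlapped, with a log2 fold change of -1.66 ± 0.49 (adjusted p = 0.0521). Both were on the other side of the threshold in several alternatives, cuc-1 in 12 and mtl-2 in 10 of 28, lower in the copper-treated mutant each time. Without copper-treated mutant replicate 4 they passed it at -1.55 and -2.07, without untreated control replicate 2 at -1.29 and -1.89, without untreated control replicate 4 at -1.25 and -1.92, and without copper-treated control replicate 1 at -1.15 and -1.68. They also passed without the long-depleted libraries, at -0.99 and -1.08. The CTR-family transporter gene chca-1 (-1.02 ± 0.40, adjusted p = 0.146), the cytochrome oxidase copper chaperone gene cox-17 (-1.37 ± 0.55, adjusted p = 0.157) and the copper-zinc superoxide dismutase gene sod-1 (-0.53 ± 0.34, adjusted p = 0.373) were not called. The cadmium-responsive genes cdr-7 and cdr-6 had log2 fold changes of 1.27 and -0.97 (adjusted p = 0.0667 and 0.0835). Leaving out copper-treated mutant replicate 4 brought cox-17 (-1.82) and cdr-6 (-1.14) past the threshold, leaving out copper-treated control replicate 1 did so for cdr-6 (-0.99), and leaving out copper-treated control replicate 3 for cdr-7 (1.27). The second metallothionein gene, mtl-1, was too low to test, with 1 count over the copper-treated mutant libraries and 14 over the untreated control libraries, and numr-1, a gene of the heavy metal response, had 0 counts in both groups.

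Genes of the infection response rose together. Of 13 tested genes with CUB-like domains or other known induction by pathogens, 10 were called higher and 0 lower, and the median log2 fold change was 2.53. This is 10 of 13 against 4.79% of all tested genes called higher. The summed level of the list was 893 to 1247 CPM in the copper-treated mutant and 253 to 332 CPM in the untreated control. Without the 5 long-depleted libraries the count was again 10 higher and 0 lower, and it was the same with offsets for transcript length.

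The infection response gene irg-5 (WBGene00009429, WBcel235 chromosome V, 13737010 to 13738474, minus strand) had 80, 121, 112 and 78.9 CPM in the copper-treated mutant, against 2.75, 1.87, 1.32 and 1.12 CPM in the untreated control. Every mutant library lay far above every control library, at a log2 fold change of 5.74 ± 0.41 (adjusted p = 6.66e-07). The CUB-like gene dod-24, named as a gene downstream of the DAF-16 transcription factor, had 168, 233, 195 and 148 CPM in the copper-treated mutant, against 24.8, 22.4, 21.2 and 10.1 CPM in the untreated control. Again the groups stood clear of each other (3.23 ± 0.36, adjusted p = 0.00011). Its relatives C32H11.4 (3.29 ± 0.32), dod-17 (3.16 ± 0.39) and irg-4 (3.41 ± 0.47) rose by similar amounts. The gene sysm-1, whose small secreted peptide is a common readout of the p38 defence pathway, had 27, 24.1, 26.7 and 38.7 CPM in the copper-treated mutant, against 9.18, 2.49, 8.38 and 3.93 CPM in the untreated control. Here too the groups did not overlap (2.29 ± 0.41, adjusted p = 0.00295). None of 28 alternatives ended the calls of irg-5, dod-24, C32H11.4, dod-17, irg-4 or sysm-1. The 28 leave out the test against a minimum fold, which ended the call of sysm-1. They also leave out the fit to the 5 long-depleted libraries alone, which ended the calls of all these genes. Their log2 fold changes in that fit ran from 2.53 (sysm-1) to 5.57 (irg-5).

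Other defence families split. Among 58 tested C-type lectins, which bind sugars, 12 rose and 2 fell, at a list median of 0.39, against 4.79% and 1.31% of all tested genes. Without the long-depleted libraries the counts were 19 and 3. The largest named rise was clec-45, with 24.8, 33.9, 38.5 and 32.5 CPM in the copper-treated mutant and 2.75, 0, 0 and 0 CPM in the untreated control. All of its control counts came from replicate 1 (5.56 ± 0.66, adjusted p = 0.000208). Rises of clec-73, clec-67 and clec-52 were 2.95, 2.90 and 1.78 on the log2 scale (2.76 for clec-52 without the long-depleted libraries), while clec-222 and clec-218 fell by 1.62 and 2.23. Of 8 tested caenacins and antibacterial factors, which are antimicrobial peptides, 3 rose, against 4.79% of all tested genes. The caenacin gene cnc-10 had 29.2, 27.5, 24.8 and 24.1 CPM in the copper-treated mutant, against 8.72, 5.92, 9.26 and 7.86 CPM in the untreated control (1.74 ± 0.25, adjusted p = 0.000704). The other 2, abf-4 and abf-5, rested on 3 counts each in the untreated control, at count ratios of 12.7 (95% interval 4.15 to 63.4) and 10.4 (3.37 to 52.3). The call of abf-5 ended without copper-treated mutant replicate 2, and that of abf-4 without copper-treated mutant replicate 2 or 3, untreated control replicate 1 or 3, or the long-depleted libraries, where its fitted log2 fold change was 1.96 (adjusted p = 0.213).

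Lysozymes, enzymes that cut bacterial cell walls, moved in both directions, with 1 of 8 tested genes higher and 4 lower, against 4.79% and 1.31% of all tested genes, and 2 higher and 3 lower without the long-depleted libraries. The gene lys-2 had 549, 559.7, 549 and 786 CPM in the copper-treated mutant, against 174, 52.6, 108 and 125 CPM in the untreated control, and was among the 5 most abundant genes called higher. It rose by 2.41 ± 0.33 (adjusted p = 0.000507), with no overlap. The invertebrate-type lysozyme gene ilys-5 had 621, 714, 599 and 916 CPM in the copper-treated mutant, against 3422, 1569.6, 2333 and 1594 CPM in the untreated control. That fall was 1.65 ± 0.26 on the log2 scale (adjusted p = 0.00144), also with no overlap. The neighbouring genes lys-4, lys-5 and lys-6 fell as well, by 1.74, 1.72 and 1.4. The call of lys-6 ended without copper-treated mutant replicate 1, 2 or 3 (-1.42, -1.38 and -1.35) and without untreated control replicate 1 or 3 (-0.87 and -1.41). It ended too with the library class as a term (-1.05, adjusted p = 0.051) or with that class left out (-0.77, adjusted p = 0.0921). The gene lys-7 was not called (-0.75 ± 0.29, adjusted p = 0.137), but passed the threshold without copper-treated mutant replicate 4 (-0.94) or untreated control replicate 1 (-0.95), and without the long-depleted libraries (-0.68).

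Saposin-like proteins, some of which form pores in bacterial membranes, fell in 5 of 16 tested genes and rose in 0, against 1.31% of all tested genes called lower. The gene spp-4 had 13.7, 11, 14.7 and 29.2 CPM in the copper-treated mutant, against 201, 63.5, 142 and 119 CPM in the untreated control (-2.94 ± 0.36, adjusted p = 0.000208). The groups did not overlap. Those of spp-2, spp-1, spp-17 and spp-8 were called but overlapped between groups, and the list median of -0.87 was -0.026 without the long-depleted libraries, with 4 lower and 1 higher. There spp-17 was at -1.02, and spp-1 was not called (-0.24, adjusted p = 0.416). Its call also ended without copper-treated mutant replicate 3 (-1.13) or untreated control replicate 3 (-1.12), and that of spp-17 without copper-treated mutant replicate 1, 2 or 3 (-1.6, -1.65 and -1.59) or untreated control replicate 1 or 3 (-1.2 and -1.79).

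**Figure D3:**
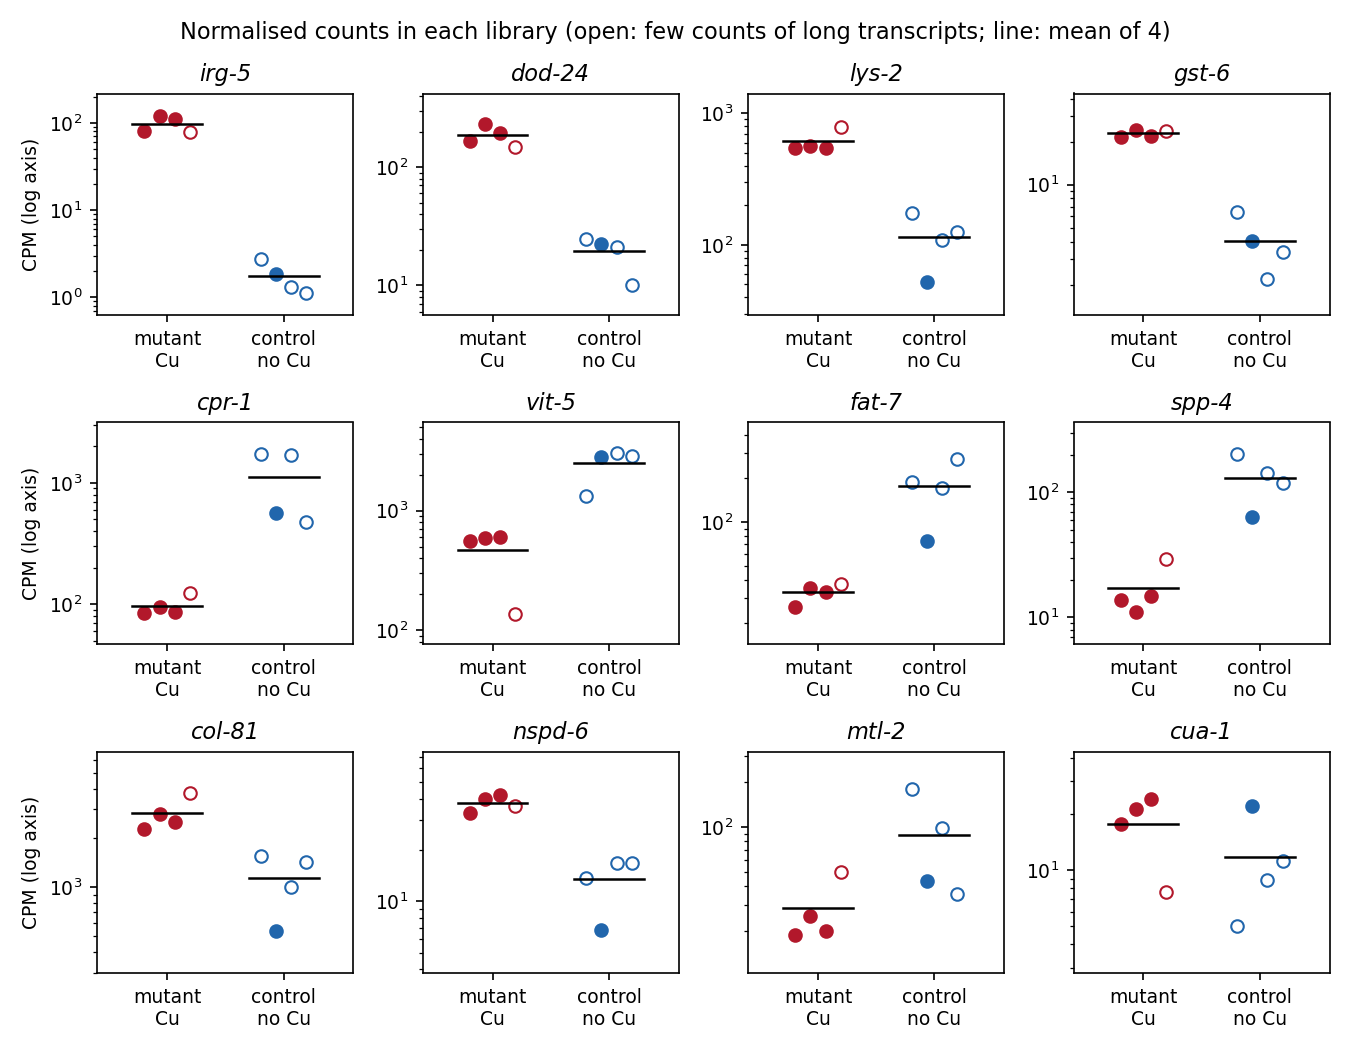
Each panel gives 1 gene in CPM on a log axis whose range differs between panels, with the 4 copper-treated mutant libraries in red at the left and the 4 untreated control libraries in blue at the right; open symbols are long-depleted libraries and lines are group means. The infection genes irg-5 and dod-24 and the lysozyme gene lys-2 lie higher and the protease gene cpr-1, vit-5, fat-7 and spp-4 lower in every copper-treated mutant library, while mtl-2 and cua-1 overlap.

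Enzymes of detoxification changed by family. Of 25 tested glutathione S-transferases, which couple glutathione to reactive compounds, 4 rose and 1 fell, at a list median of 0.41, against 4.79% and 1.31% of all tested genes. With the 5 long-depleted libraries left out, 9 were higher and 0 lower, at a median of 1.24. The gene gst-6 had 21.6, 24.1, 21.8 and 23.7 CPM in the copper-treated mutant, against 6.43, 4.05, 2.2 and 3.37 CPM in the untreated control. Its groups were far apart and narrow (2.49 ± 0.36, adjusted p = 0.000704). The gene gst-38 had 20.6, 12.7, 20.6 and 34 CPM in the copper-treated mutant, against 1.84, 0, 0.441 and 2.25 CPM in the untreated control (4.40 ± 0.67, adjusted p = 0.000895), and gst-24 rose by 4.36 ± 0.56. The gene gst-35 had 0 counts in the untreated control and 139 in the copper-treated mutant, which makes it at least 29.0-fold higher against 3 counts over the group. The 1 gene that fell was gstk-1, by 0.99. The oxidative stress reporter gene gst-4 was not called (1.41 ± 0.48, adjusted p = 0.093), but passed the threshold without untreated control replicate 4 (2.23) and in the fit that leaves out the long-depleted class (2.67, adjusted p = 0.0152).

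UDP-glucuronosyltransferases, which attach sugars to foreign and hormonal compounds, rose in 5 of 28 tested genes and fell in 1, ugt-62, against 4.79% and 1.31% of all tested genes. In the fit to the other 11 libraries, 8 were higher and 2 lower. The gene ugt-13 had 12.3, 14.8, 11 and 12 CPM in the copper-treated mutant, against 3.67, 2.49, 1.32 and 2.25 CPM in the untreated control (2.35 ± 0.40, adjusted p = 0.00194). Rises of ugt-12, ugt-48 and ugt-16 were 1.58, 2.22 and 3.36. Cytochrome P450 genes, whose enzymes oxidise foreign compounds and lipids, had 4 of 19 members lower and 0 higher, against 1.31% of all tested genes called lower, and 5 lower and 1 higher without the long-depleted libraries. The gene cyp-35A2 had 3.19, 2.39, 5.64 and 1.46 CPM in the copper-treated mutant, against 33.5, 26.8, 24.2 and 7.86 CPM in the untreated control. Its highest mutant library stayed below its lowest control library (-2.83 ± 0.43, adjusted p = 0.000825). Falls of cyp-34A9, cyp-35A3 and cyp-37A1 were 2.99, 3.69 and 1.7, and the call of cyp-35A3 ended without copper-treated mutant replicate 1 or 3 (-3.28 and -3.52).

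Yolk protein genes fell. Of the 6 vitellogenins, which the gut secretes for uptake by oocytes, 5 were called lower and 0 higher, at a median log2 fold change of -2.17, against 1.31% of all tested genes called lower. Their summed level was 1801 to 7837 CPM in the copper-treated mutant and 9993 to 22675 CPM in the untreated control. All 6 were called lower without the long-depleted libraries (median -2.09) and with offsets for transcript length (median -2.85). The gene vit-5 (WBGene00006929, WBcel235 chromosome X, 3403471 to 3408603, plus strand) had 561, 592, 602 and 138 CPM in the copper-treated mutant, against 1339.8, 2829, 3034 and 2857 CPM in the untreated control. Mutant replicate 4 and control replicate 1, the libraries with the fewest long transcripts, were the lowest of their groups, and the groups still did not overlap (-2.41 ± 0.37, adjusted p = 0.000891). The gene vit-2 had 1948, 2228, 2149.9 and 634 CPM in the copper-treated mutant, against 3166, 4820.2, 5641 and 4061 CPM in the untreated control (-1.35 ± 0.31, adjusted p = 0.0142), and its value with length offsets was -2.06. It too did not overlap, but its call ended without untreated control replicate 3, where the value was -1.21. The fit to the 8 libraries alone, which ended most calls, ended those of vit-2 and vit-3. The falls of vit-1, vit-3 and vit-4 were 2.37, 1.98 and 2.5. Reads of vit-3, vit-4 and vit-5 can be split between near-identical copies, so their separate values are uncertain.

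Genes of the oocytes that take up yolk did not pass the test: 0 of 15 for oocyte RNA-binding proteins and the yolk receptor, 0 of 14 for eggshell genes and 0 of 24 for P granules and meiosis, with medians of -0.37, -0.33 and -0.099. All 15 oocyte genes had a negative log2 fold change, and 3 of them were called lower without the long-depleted libraries, as were 5 eggshell genes and 3 genes of P granules and meiosis. An oocyte gene, puf-5, had 639, 618, 577 and 776 CPM in the copper-treated mutant, against 820.2, 934, 968 and 863 CPM in the untreated control. These values did not overlap, yet the change was small (-0.46 ± 0.19, adjusted p = 0.181), and it passed the test without the long-depleted libraries (-0.68).

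Gut cysteine proteases of the cathepsin B family fell in 6 of 7 tested cpr genes, against 1.31% of all tested genes called lower, and 0 rose. Their summed level was 1029 to 1339 CPM in the copper-treated mutant and 3347 to 8943 CPM in the untreated control, and the median log2 fold change was -1.87. The digestive protease gene cpr-1 (WBGene00000781, WBcel235 chromosome V, 11975551 to 11976756, plus strand) had 84.4, 95.3, 85.8 and 123 CPM in the copper-treated mutant, against 1741, 563, 1685 and 473 CPM in the untreated control. The mutant libraries were alike while the control libraries spread widely (-3.52 ± 0.38, adjusted p = 9.22e-05). The gene cpr-4 had 89.6, 125, 108 and 131 CPM in the copper-treated mutant, against 1294, 573, 1440.3 and 378 CPM in the untreated control (-3.02 ± 0.35, adjusted p = 0.000203). Falls of cpr-5, cpr-6 and cpr-9 were 3.29, 1.65 and 1.87. Once the long-depleted class was left out, 6 were lower and 1 was higher. Aspartyl proteases were mixed, with 1 of 11 higher and 1 lower, against 4.79% and 1.31% of all tested genes. The gene asp-14 rose by 1.74 ± 0.35 (486 ± 80.5 CPM in the copper-treated mutant, 145 ± 83.4 CPM in the untreated control, SD, n = 4 each), and asp-3 fell by 1.33 ± 0.26, or by 0.58 without the long-depleted libraries. Of 15 tested gut markers, 1 was called higher and 1 lower, against the same shares. The intermediate filament gene ifb-2 rose by 1.12 ± 0.21 and cpr-6 fell. The gut transcription factor gene elt-2 was not called (1.03 ± 0.38, adjusted p = 0.119), except without untreated control replicate 2 (1.45). The gut markers summed to 4624 to 8575 CPM in the copper-treated mutant and 4707 to 15889 CPM in the untreated control, and their part in the fall of yolk and protease genes was not tested.

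Genes of lipid metabolism showed single called changes and no common direction, apart from the desaturases, which all lay below 0. The stearoyl-CoA desaturase gene fat-7, which makes monounsaturated fatty acids, had 25.8, 35.1, 32.6 and 37.2 CPM in the copper-treated mutant, against 189, 73.5, 171 and 269.6 CPM in the untreated control. No mutant library reached the lowest control library (-2.42 ± 0.31, adjusted p = 0.00029), although the value was -1.30 without the long-depleted libraries. It was the 1 gene called among 18 of fat synthesis, where 4 were higher and 2 lower without those libraries. Its close relatives fat-6 and fat-5 were at -0.74 ± 0.25 (adjusted p = 0.0988) and -1.47 ± 0.44 (adjusted p = 0.0579), and at 0.045 and 0.042 without those libraries. Both passed the threshold without copper-treated mutant replicate 4 (-0.85 and -1.54) or untreated control replicate 2 (-0.96 and -1.78), and fat-5 without copper-treated control replicate 1 (-1.48). The other desaturase genes, fat-1, fat-2, fat-3 and fat-4, were at -0.72, -0.14, -0.61 and -0.31 and were not called. Of 40 genes of fat breakdown, 3 rose and 3 fell, against 4.79% and 1.31% of all tested genes. The list median was -0.19, and -0.2 without the long-depleted libraries. The enoyl-CoA hydratase gene ech-9 had 14.7, 10, 15.9 and 4.38 CPM in the copper-treated mutant, against 0, 1.56, 0 and 1.69 CPM in the untreated control (3.71 ± 0.74, adjusted p = 0.0063), with no overlap. The acyl-CoA dehydrogenase gene acdh-7 and the lipase gene lipl-5 fell by 1.09 and 1.18, and maoc-1 by 1.61, while acdh-2 and acdh-8 rose by 1.45 and 1.54. The call of acdh-7 ended without copper-treated mutant replicate 3 (-1.06), and those of lipl-5 and maoc-1 without copper-treated mutant replicate 1, 2 or 3 or untreated control replicate 1 or 3 (-0.92 to -1.18 and -1.15 to -1.69). With the 5 long-depleted libraries left out, lipl-5 was at -0.44 and not called (adjusted p = 0.0924). The acyl-CoA synthetase gene acs-2 was at 29.7 ± 5.13 CPM in the copper-treated mutant and 26 ± 15.4 CPM in the untreated control and was not called (0.19 ± 0.43, adjusted p = 0.809). Of 15 genes of the methionine cycle and phosphocholine synthesis, 1 rose, against 4.79% of all tested genes. It was sams-1, for S-adenosylmethionine synthetase, which rose by 0.98 ± 0.24 (adjusted p = 0.0203). That call ended without copper-treated mutant replicate 1 or 2 (0.94 and 0.92) or untreated control replicate 1 or 3 (0.88 and 0.89).

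Cuticle collagens of the col family rose in 11 of 88 tested genes, and 0 fell, at a median of 0.75, against 4.79% of all tested genes called higher. They include 3 of the 5 most abundant genes called higher. The gene col-81 had 2269, 2781, 2513 and 3751 CPM in the copper-treated mutant, against 1550.1, 535, 997 and 1432 CPM in the untreated control. The groups did not overlap, and the highest library of each group was the one with the fewest long transcripts (1.33 ± 0.29, adjusted p = 0.0113). The genes col-129 and col-139 rose by 1.23 ± 0.31 and 1.18 ± 0.27, and col-157, col-161 and col-91, less abundant, by 2.71, 2.19 and 2.58. Without untreated control replicate 3 the calls of col-129 (1.19) and col-91 (2.42) ended, as did that of col-129 without copper-treated mutant replicate 2 (1.23). In the fit to the other 11 libraries, col-81, col-129, col-139 and col-91 were at 2.17, 2.29, 2.02 and 4.89. The number of col genes called depends on the long-depleted libraries: it was 67 higher and 1 lower without them, and 24 higher and 1 lower with length offsets. Of 12 collagens with known effects on body shape, 1 was called lower, against 1.31% of all tested genes. It was dpy-17, which fell by 2.13 ± 0.55. That call ended without copper-treated mutant replicate 1, 2 or 3 (-2.04, -2.15 and -2.16) or untreated control replicate 2 or 3 (-1.28 and -2.1). Once the long-depleted class was left out, dpy-17 was at -3.46, and the list had 4 higher and 1 lower. The adult collagen gene col-19 was not called (0.23 ± 0.29, adjusted p = 0.661), although it was at 1.05 without those libraries (adjusted p = 1.93e-05). Near-identical collagen copies can share reads.

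**Figure D4:**
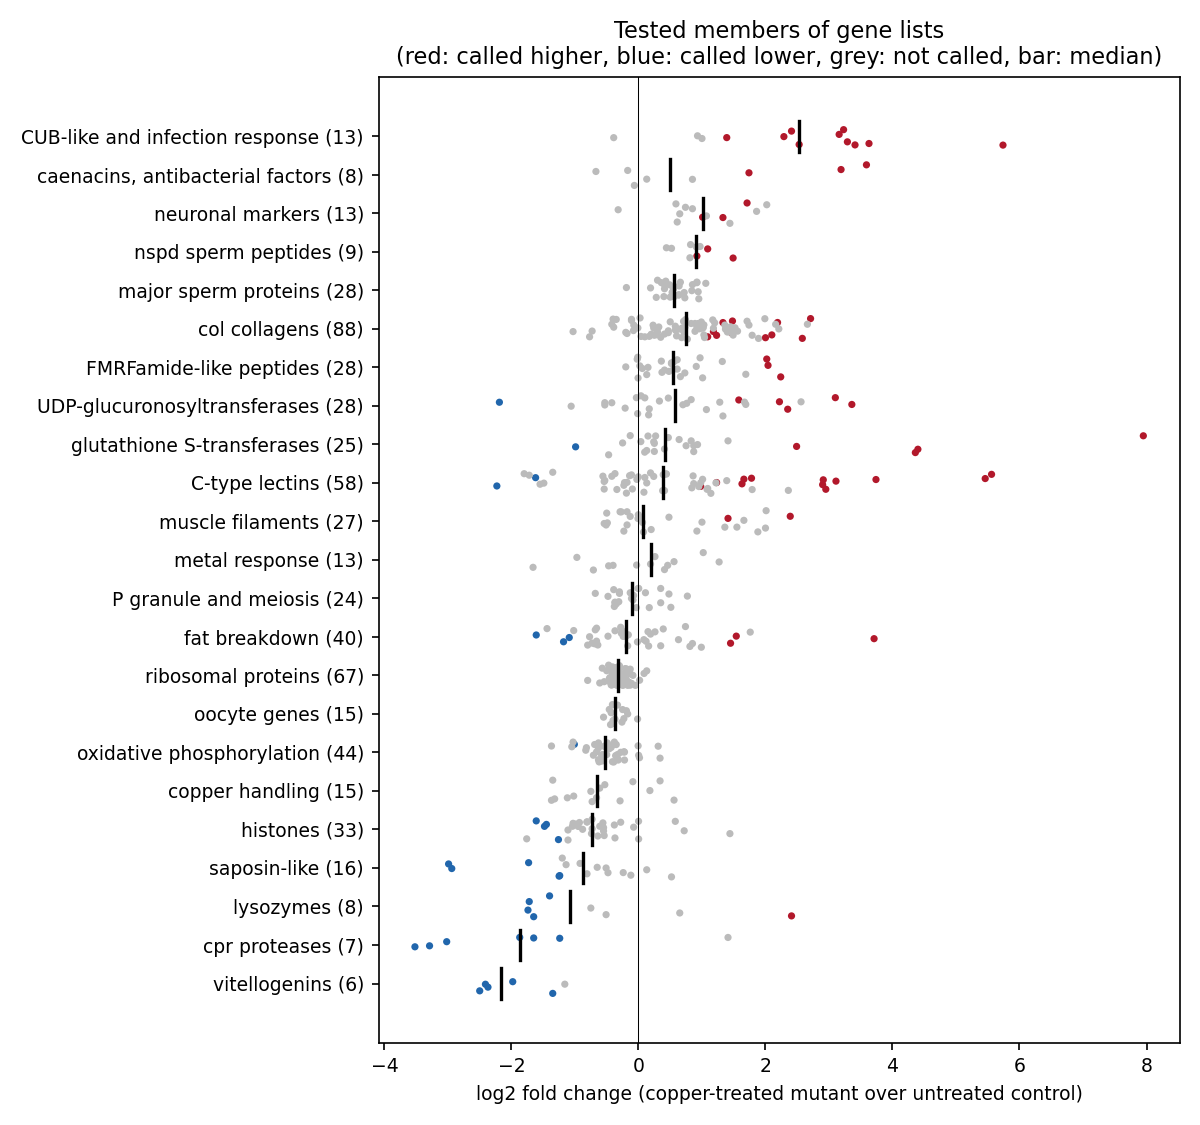
Each point is a tested member of 1 of 23 gene lists, with the number of tested members in brackets, at its fitted log2 fold change of the copper-treated mutant over the untreated control; red was called higher, blue called lower, grey not called, and the bar is the list median. Infection response genes lie to the right with a median of 2.53 and vitellogenins to the left with a median of -2.17, and the rightmost glutathione S-transferase, gst-35, had 0 counts in the untreated control, so that its position depends on the prior count.

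Genes of sperm and neurons lay mostly above 0, with few members called. Small nspd peptides of sperm rose in 3 of 9 genes, against 4.79% of all tested genes. Their median was 0.91, and 1.51 without the long-depleted libraries, where the untreated control is replicate 2 alone. The gene nspd-6 had 32.9, 39.9, 41.9 and 36.1 CPM in the copper-treated mutant, against 13.8, 6.85, 16.8 and 16.9 CPM in the untreated control (1.49 ± 0.29, adjusted p = 0.00561). Those groups did not overlap, though the fit to the 8 libraries alone ended the call of nspd-6. The calls of the other 2, nspd-10 and nspd-4, ended there too. They also ended when any of several single libraries was left out (0.93 to 1.15 and 0.72 to 0.98). Other sperm genes rose in 3 of 34, against 4.79% of all tested genes. Their median was 1.46 without the long-depleted libraries against 0.73 with them. The 3 are the sperm phosphatase gene gsp-3 (1.70 ± 0.38) and ssq-4 and ssq-3 (1.07 and 1.34). The call of ssq-4 ended without copper-treated mutant replicate 3 (1.1) or untreated control replicate 1 (0.98), and that of ssq-3 without copper-treated mutant replicate 2 or 3, untreated control replicate 1 or 3 or untreated mutant replicate 1, 2 or 4 (1.3 to 1.38). With the 5 long-depleted libraries left out, nspd-6, nspd-4, ssq-4 and ssq-3 were at 2.41, 1.51, 1.73 and 2.71. Of 28 major sperm protein genes, 0 were called by edgeR, at a median of 0.56 and with 27 of 28 above 0. Without the long-depleted libraries the median was 1.52. The mean log2 level of this list, centred over the 16 libraries, was -1.2 in untreated control replicate 2. It was 0.32, 0.12 and 0.2 in untreated control replicates 1, 3 and 4. Replicate 2 was also the lowest control for nspd genes (-1.1) and other sperm genes (-0.93). Values of sperm genes without the long-depleted libraries rest on that 1 control library. Copies of the major sperm protein genes are near-identical and can share reads.

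Pan-neuronal genes rose in 3 of 13, against 4.79% of all tested genes, namely rab-3, a synaptic vesicle gene (1.71 ± 0.39), and pgal-1 and egl-3, for enzymes that process neuropeptides (1.33 ± 0.32 and 1.01 ± 0.25). Their list summed to 525 to 633 CPM in the copper-treated mutant and 278 to 478 CPM in the untreated control. FMRFamide-like peptide genes were called higher in 3 of 28, against 4.79% of all tested genes. They were led by flp-1, with 12, 13.9, 14.5 and 20.1 CPM in the copper-treated mutant, against 2.29, 2.8, 5.29 and 4.49 CPM in the untreated control (2.02 ± 0.33, adjusted p = 0.00149). The calls of flp-13 and flp-19 ended when any of several single libraries was left out (1.79 to 2.28 and 1.89 to 2.11). Without the long-depleted libraries flp-19 was at 1.08. Insulin-like peptide genes were called higher in 2 of 8 (ins-37 and ins-7), against 4.79% of all tested genes. Among 47 other neuropeptide-like genes 2 were called higher (nlp-11 and nlp-49), a share near the 4.79% of all tested genes. Single libraries ended the call of pgal-1 (copper-treated mutant replicate 2 or 3, 1.29 and 1.17), of egl-3 (copper-treated mutant replicate 1, 2 or 3 or untreated control replicate 1 or 3, 0.85 to 1.01), of ins-7 (14 of the 16, 1.07 to 1.84) and of nlp-49 (8 of the 16, 1.33 to 1.78). In the fit to the other 11 libraries, rab-3 (1.55, adjusted p = 0.0514), ins-37 (1.35, adjusted p = 0.0641) and ins-7 (1.30, adjusted p = 0.0914) were not called, and nlp-11 and nlp-49 were at 3 and 2.69. Of 27 filament genes of muscle, 2 were called higher, against 4.79% of all tested genes. The list median of 0.064 was near that of all genes. The 2 are the troponin I gene tni-1 (1.41 ± 0.27) and the pharyngeal myosin gene myo-2 (2.39 ± 0.55). The list summed to 13974 to 22599 CPM in the copper-treated mutant and 10045 to 30892 CPM in the untreated control. Once the long-depleted class was left out, the median was 0.59 for muscle genes and 1.39 for pan-neuronal genes. It was 1.33 for FMRFamide-like genes and 0.94 for other neuropeptide-like genes. The untreated control is replicate 2 alone in that fit. The part of the library class in these lists was not tested beyond these values.

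Stress chaperones and most housekeeping lists did not pass the test in edgeR. It called 0 of 10 cytosolic chaperones, 0 of 16 chaperones of the endoplasmic reticulum, 0 of 7 mitochondrial chaperones and 0 of 17 antioxidant genes. With the 5 long-depleted libraries left out, 2 cytosolic chaperones and 1 antioxidant gene were called higher, and 1 chaperone of the endoplasmic reticulum and 1 antioxidant gene lower. The reporter genes hsp-4, of the endoplasmic reticulum, and hsp-6, of the mitochondria, were at 25.7 ± 10.1 and 63.8 ± 10.6 CPM in the copper-treated mutant and at 24.6 ± 2.64 and 63.8 ± 14.9 CPM in the untreated control. Too few counts for a test were found for the heat shock gene hsp-16.2 (23 over the copper-treated mutant, 3 over the untreated control) and for the superoxide dismutase gene sod-3 (27 and 4). Also 0 were called among 67 cytosolic ribosomal proteins, 69 mitochondrial ribosomal proteins, 33 proteasome subunits, 20 subunits of the vacuolar proton pump, 14 lipid-binding proteins and 2 genes of iron handling. Most members of the first 3 of these lists lay below 0. Only 3, 12 and 1 lay above it, at medians of -0.33, -0.43 and -0.37. Without the long-depleted libraries these medians were 0.35, -0.28 and -0.22. Medians of the proton pump and the lipid-binding proteins were -0.12 and -0.23, and 0.14 and 0.17 without those libraries. Oxidative phosphorylation had 1 of 44 called lower, ucr-2.2, which fell by 1.01, against 1.31% of all tested genes. Only 4 of the 44 lay above 0, at a median of -0.52, and of -0.063 without the long-depleted libraries. Autophagy had 1 of 23 called lower, epg-9, which fell by 1.29. Histones fell in 4 of 33, against 1.31% of all tested genes, led by his-47 (-1.61 ± 0.38), where near-identical copies can share reads. Without copper-treated mutant replicate 1, 2 or 3 the calls of ucr-2.2 (-0.92, -1.11 and -0.97), epg-9 (-1.22, -1.24 and -1.31) and his-47 (-1.58, -1.52 and -1.54) ended, as did those of ucr-2.2 and epg-9 without untreated control replicate 1 (-0.77 and -1.08) or 3 (-1 and -1.15). In the fit to the other 11 libraries, ucr-2.2 was at -0.42 (adjusted p = 0.284) and his-47 at -1.07, and 6 autophagy genes and 5 histones were lower. With the library class as a term ucr-2.2 was at -0.67 (adjusted p = 0.0659).

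Outside these families, the largest rises include mul-1, which encodes a mucin-like protein. It had 14.5, 13.6, 13 and 21.5 CPM in the copper-treated mutant and 0 counts in all 4 untreated control libraries, which makes it at least 47.6-fold higher against 3 counts over the group. The uncharacterised gene F19H6.5 had 28.5, 19.8, 23.3 and 11 CPM in the copper-treated mutant, against 0, 0.311, 0 and 0.562 CPM in the untreated control. Its control values rest on 2 counts, at a count ratio of 101 (95% interval 27.8 to 841). The claudin-like gene clc-11, with 3 counts in the untreated control, was at a ratio of 36.3 (12 to 178). The gene cls-3, of the CLASP family of microtubule regulators, had 14.2, 16, 17.4 and 1.83 CPM in the copper-treated mutant, against 0, 1.56, 0 and 0 CPM in the untreated control. The lowest values of each group, 1.83 and 0, were all in long-depleted libraries, and without these libraries the log2 fold change was 3.26, called as before. Further rises were those of F08G2.5 (4.36), K11H12.4 (4.13), F55G11.2 (3.92), B0348.2 (3.66) and C36C5.12 (3.54), whose libraries also did not overlap. The fungus-induced protein related gene fipr-21, among the most abundant genes called higher, rose by 1.11 ± 0.24.

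The largest fall among genes whose libraries did not overlap was that of T12D8.5, with 10.1, 10, 10.3 and 15.3 CPM in the copper-treated mutant, against 335, 86, 220.4 and 24.7 CPM in the untreated control. Copper-treated mutant replicates 1 to 3 were nearly equal and replicate 4 higher, while the control libraries spread widely (-3.87 ± 0.54, adjusted p = 0.000557). Falls of E02H4.7 (3.77), C40H1.7 (3.17), ZK673.1 (3.11), C27B7.9 (2.97) and B0205.13 (2.85) had no overlap either. The gene nta-1 fell by 2.92, a call that ended without the long-depleted libraries (-1.27, adjusted p = 0.238). The non-coding RNA tts-1 is abundant in dauer larvae and in some long-lived mutants. It had 88.6, 101, 97.4 and 114 CPM in the copper-treated mutant, against 1009, 272, 1295 and 98.3 CPM in the untreated control. Control replicate 4 lay inside the mutant range (-2.74 ± 0.58, adjusted p = 0.0105), and the value without the long-depleted libraries was -1.57. The gene dod-3, downstream of DAF-16, fell by 3.30 ± 0.73 (adjusted p = 0.0128), with control replicate 4 again within the mutant range, a call that ended without copper-treated mutant replicate 2 (-3.16) or untreated control replicate 3 (-2.78). The abundant gene dct-16 fell by 1.79 ± 0.42 (adjusted p = 0.018) with overlap, and its call ended in 5 of 28 alternatives, among them without untreated control replicate 1 (-1.30) and without copper-treated mutant replicate 1, 2 or 3 (-1.65, -1.72 and -1.64).

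The 2 groups that differ from the compared ones by 1 factor give the same genes' levels with genotype or copper alone, and their comparisons share libraries with the joint one, so the values stand side by side. Levels of irg-5 were 98 ± 21.7 CPM in the copper-treated mutant, 1.09 ± 0.757 CPM in the untreated mutant, 8.42 ± 2.21 CPM in the copper-treated control and 1.77 ± 0.729 CPM in the untreated control (SD, n = 4 each). Its log2 fold change was -0.71 for genotype without copper (adjusted p = 0.265) and 2.2 for copper in the control (adjusted p = 0.0109). The interaction, which subtracts the log2 response to copper in control worms from that in mutant worms, was 4.25 ± 0.60 (adjusted p = 0.00102).

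For vit-5 the levels were 473 ± 224 CPM in the copper-treated mutant, 2288 ± 139 CPM in the untreated mutant, 2969 ± 267 CPM in the copper-treated control and 2515 ± 789 CPM in the untreated control. The groups with 1 factor alone were not called against the untreated control (-0.14 and 0.24, adjusted p = 0.777 and 0.673), and the interaction was -2.51 ± 0.50 (adjusted p = 0.00686). The lysozyme gene lys-2 had a like layout in the other direction, at 611 ± 117, 89.5 ± 35.2, 153 ± 28 and 115 ± 50.3 CPM in the same order of groups, with an interaction of 2.35 ± 0.45 (adjusted p = 0.00573).

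Other genes were already moved by a single factor. The protease gene cpr-1 was at 97.2 ± 17.9 CPM in the copper-treated mutant, 171 ± 24.5 CPM in the untreated mutant, 315 ± 53.9 CPM in the copper-treated control and 1116 ± 691 CPM in the untreated control. It was called for genotype alone (-2.71, adjusted p = 0.000663) and for copper alone (-1.82, adjusted p = 0.0138), and its interaction of 1.01 ± 0.49 was not called (adjusted p = 0.178). The collagen gene col-81 was at 2829 ± 649 and 2589 ± 189 CPM in the treated and untreated mutant, and at 1007 ± 222 and 1129 ± 462 CPM in the treated and untreated control. It was called for genotype alone (1.2, adjusted p = 0.0138) and not for copper in the control (-0.16, adjusted p = 0.728). For sysm-1 the copper-treated control, at 156 ± 43.7 CPM, lay above the copper-treated mutant, at 29.1 ± 6.5 CPM, with a difference of -2.42 (adjusted p = 0.000921). The gene acs-2, not called in the joint comparison, was low in both groups with 1 factor, at 1.89 ± 0.558 CPM in the untreated mutant and 2.76 ± 2.06 CPM in the copper-treated control (interaction 7.16 ± 0.72, adjusted p = 4.58e-05).

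**Figure D5:**
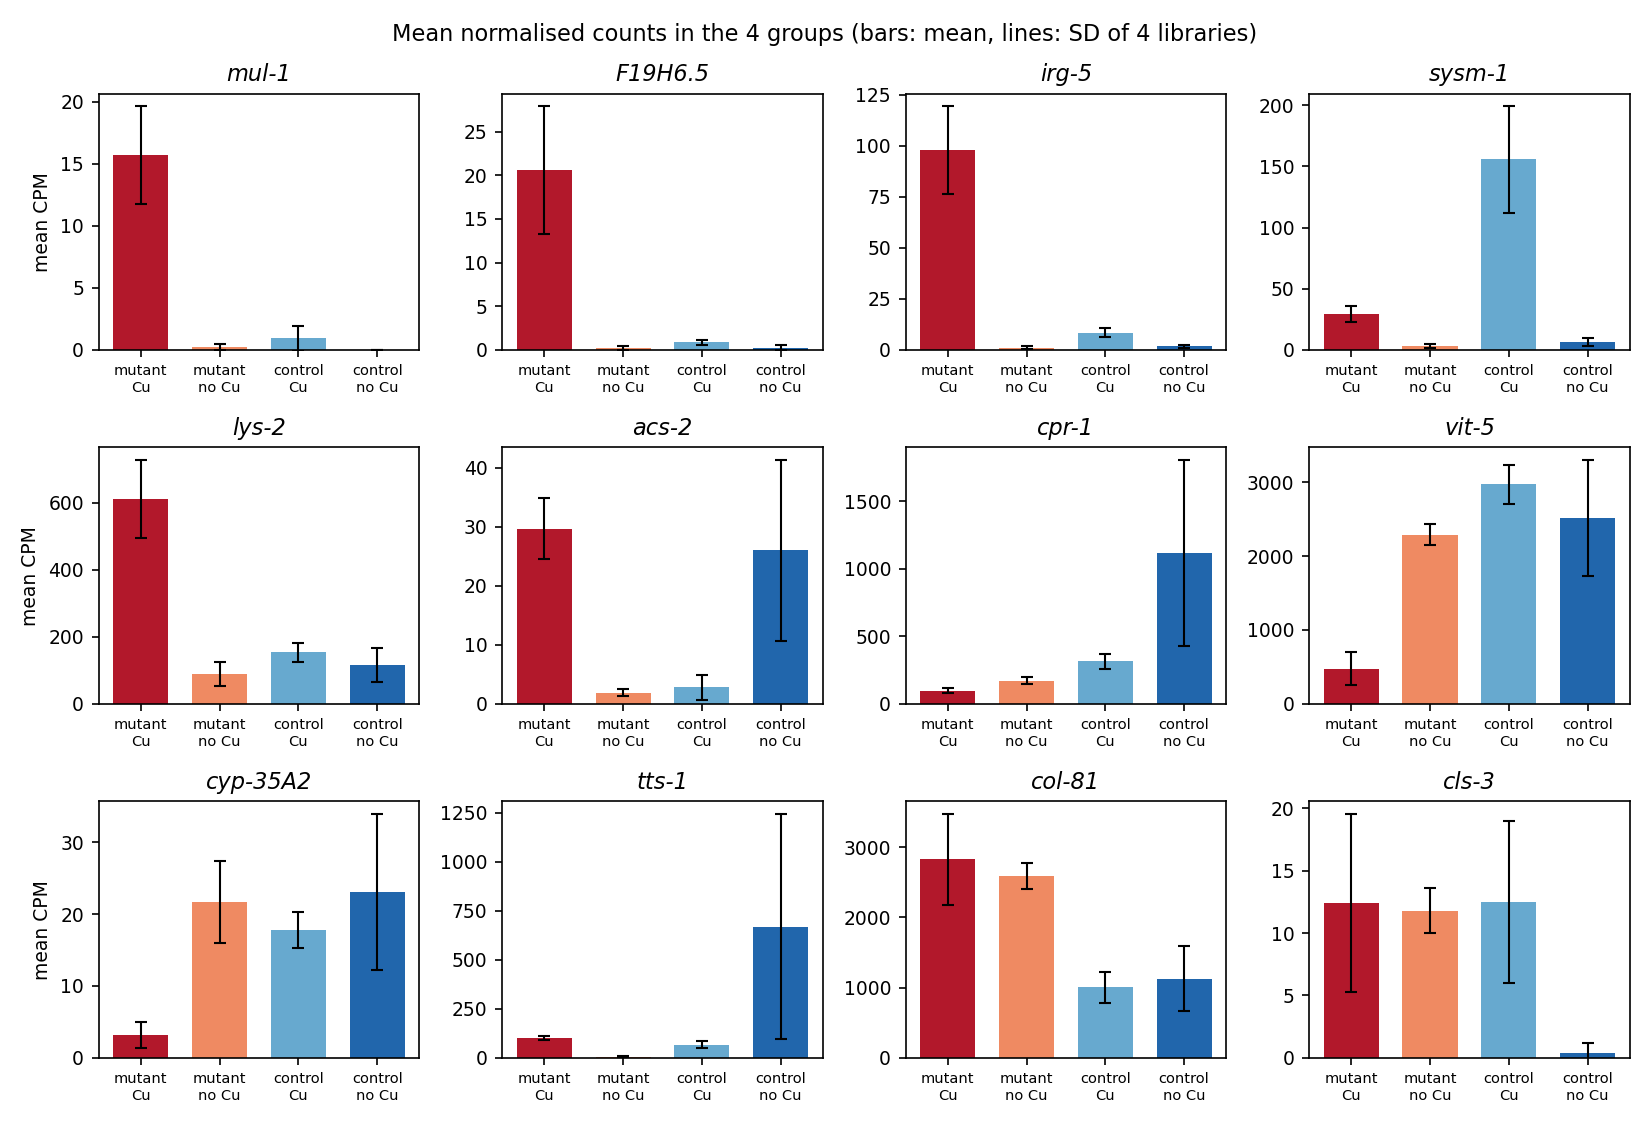
Each panel gives the mean CPM of 1 gene in the copper-treated mutant, the untreated mutant, the copper-treated control and the untreated control, with lines for the SD of 4 libraries; vertical scales start at 0 and differ between panels. The gene irg-5 averages 98 CPM in the copper-treated mutant and at most 8.42 CPM in the other groups, vit-5 is low in the copper-treated mutant alone among the group means, and col-81 is high in both mutant groups.

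The untreated mutant and the copper-treated control share no library with the joint comparison, and their difference sets genotype alone against copper alone. Of the 469 genes called higher in the copper-treated mutant, 111 were called higher in the untreated mutant over the copper-treated control and 10 lower (23.7% and 2.13%), at a median log2 difference of 0.82. Over all 9787 tested genes 314 were higher and 35 lower (3.21% and 0.358%). Of the 128 genes called lower, 1 was higher and 7 were lower in that comparison, at a median of -0.17. Of its 8 libraries 1 was long-depleted, in the copper-treated control.

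Genes called in the same direction often stood next to each other. Among tested genes ordered along each chromosome, 22% of genes called higher had a neighbour called higher (103 of 468 with a position), against 9.11% of all tested genes, and 10.2% of genes called lower had a neighbour called lower, against 2.57%. Runs of 4 on chromosome IV held CUB-like and related genes: C32H11.3, C32H11.4, dod-24 and F55G11.8 between 12918556 and 12964645, and F55G11.2, mbug-1, dod-17 and K10D11.5 between 12967445 and 12991843. A run on chromosome V, between 13716824 and 13738474, held T01D3.6, dct-17, F35E12.6 and irg-5. The run of genes called lower was lys-4, lys-5 and lys-6 on chromosome IV, between 11621429 and 11627947. Neighbours can share reads where they overlap or are close copies, and the strand setting of the counting is not given in the sources used here. Chromosome V held 26.3% of the genes called higher and 28.1% of those called lower, against 17.0% of tested genes, and the X chromosome held 25% of those called lower, against 12.3%. Median transcript length was 1173.5 bp for genes called higher and 1070.5 bp for genes called lower, against 1375 bp for all tested genes.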

How the data were processed

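The authors deposited a table of raw, unnormalized counts of 46904 genes in 16 libraries of 3′ digital mRNA sequencing. Per the submitters' processing notes, the tools were bcl2fastq, STAR 2.6.0a and HTSeq with build ce11; annotation release and strand setting are not given in the sources used here. Columns were matched to samples by heading. Symbols came from RefSeq by gene identifier (45785 matched), positions and transcript lengths from Ensembl WBcel235, the assembly of ce11 (45983).

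The comparison was fitted with edgeR 4.0.16 (R 4.3.3, limma 3.58.1): TMM, filterByExpr defaults, 1 mean per group over 16 libraries with 12 residual degrees of freedom, robust quasi-likelihood, and Benjamini-Hochberg adjustment over 9787 genes. Standard errors are those of the model, and log2 fold changes are edgeR's. CPM of genes was computed from the deposited counts with TMM library sizes, while the CPM worth of 3 counts per library used unscaled totals. Tested genes held 99.45% to 99.78% of each library's counts. Floors of 3 counts and intervals at 95% cover counting error only. The procedure was tested on simulated data in which no library was long-depleted, so that test does not cover the effect of this class.

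The text names cua-1; the 15 largest rises and 15 largest falls among called genes whose libraries do not overlap and whose log2 CPM averages 2 or more; the 5 most abundant called genes per direction; up to 4 members of a list with the smallest adjusted p; and fixed genes. The members of runs, and the called members gstk-1, ugt-62, clec-222, clec-218, lys-5, spp-8, acdh-2 and acdh-8, were chosen after their values were seen. The comparison and its 50 lists were chosen with earlier results of these data known. Counts of members are descriptions, to be read against the shares of all tested genes called in the same fit, with no test of a list.

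Alternatives were DESeq2 1.42.0 and its size factors, upper-quartile factors, keeping every gene with 1 count, a stricter filter (CPM of 5 or more in 4 libraries), limma-voom, the 8 libraries alone, a test against an absolute log2 fold change of 1, a replicate block, length offsets (lowess span 0.3), the long-short balance as a covariate, the library class as a term, fits without and with only the 5 long-depleted libraries, and leaving out each library. Counts out of 28 alternatives leave out the minimum fold and the fit to the 5 libraries.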

Additional observations from a re-analysis of the deposited data

Results flagged for a closer look

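Several genes had a copper response in the mutant that differed from that in the control, tested as the interaction in edgeR, adjusted over all genes (log2 scale, mutant response minus control response). Only cua-1, the largest rises and falls and the fixed genes were screened here, so lys-2, given above, is not listed. The share of all genes with a called interaction was not counted. The untreated control, with 3 of 4 libraries long-depleted, enters this contrast. It was positive for irg-5 (4.25), F55G11.2 (2.51), B0348.2 (7.6), T12D8.5 (2.57), tts-1 (7.93) and acs-2 (7.16). It was negative for cls-3 (-4.44), cyp-35A2 (-2.35), vit-4 (-3.1), vit-5 (-2.51) and lys-7 (-2.46). For B0348.2 and cls-3 single groups rest on few counts, so the fitted size depends on the prior count.

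In other genes, 1 of the 4 libraries of a group stood apart, judged on log2(CPM + 1) by its gap to the nearest library as a share of the group's range, against Dixon's 95% critical value. Chance alone gives such a gap in about 1 in 20 groups. The number of groups checked was not counted, so that rate cannot be set against the cases listed. In the copper-treated mutant, replicate 4 was the one apart each time, low for cls-3 (0.899), vit-4 (0.902), vit-2 (0.893) and vit-5 (0.952) and high for T12D8.5 (0.94) and col-19 (0.974). In the untreated control, the shares were 1 for clec-45 (replicate 1 high), 1 for cls-3 (replicate 2 high), 0.903 for F55G11.2 (replicate 4 low) and 0.914 for vit-5 (replicate 1 low). For clec-45 and cls-3 all other control libraries had no counts. Such ties fix the share at 1, so the critical value does not apply to them. Copper-treated mutant replicate 4 and untreated control replicate 1 are also the libraries with the fewest counts of long transcripts, and the part of that in these gaps was not tested.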

How the results depend on the processing

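The comparison called 597 genes, 469 higher and 128 lower. DESeq2 called 1103 (769 higher, 334 lower; 9778 genes had an adjusted p), the 8 libraries alone 130 (106 and 24), and a minimum absolute log2 fold change of 1 left 69 (52 and 17). Treatments of the long-depleted libraries moved it upward, to 988 genes with length offsets (372 lower), 1622 with the balance covariate (1007 and 615), 1031 with the class as a term (788 and 243) and 1575 without the 5 libraries (1079 and 496). Within the 5 alone edgeR called 0 genes (0 higher, 0 lower), with 646 at an unadjusted p under 0.05, where each arm compared has 1 or 3 libraries; 462 of the 469 and 128 of the 128 genes kept their sign there. These libraries had also entered the calls, so the kept signs are no independent check. Leaving out 1 library gave 308 to 1230 genes, 244 to 717 higher and 60 to 513 lower. The total was 308, 332 and 1230 without copper-treated mutant replicates 2, 3 and 4, and 371 without untreated control replicate 3. The number called lower was 70 when copper-treated mutant replicate 1 was left out, 248 and 195 when untreated control replicate 2 or 4 was, and 216 for copper-treated control replicate 1. The replicate block called 439 genes, 81 of them lower. Deviations of same-numbered libraries correlated at -0.477, 0.554, -0.21 and -0.003. Copper-treated mutant replicate 4 correlated at 0.549 with untreated control replicate 1, also long-depleted, and at -0.756 with replicate 2, which is not. The numbers do not match the long-depleted class, so these correlations cannot decide whether the samples were paired. Other scalings and filters gave 511 to 654 calls. Among 227 named genes, 0 called values changed sign, in fits that share libraries with the comparison. The causes of these shifts were not tested. Floors of 3 counts limit genes under about 1 CPM on unscaled totals, a level that is higher in the long-depleted libraries on the TMM scale. Promoter motifs were not analysed here.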

Other observations

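Some further gene groups had values that the comparison above did not describe. Of 71 tested nuclear hormone receptor genes, 2 were called higher, nhr-31 (1.47 ± 0.31, adjusted p = 0.00961) and nhr-210 (2.14 ± 0.59, adjusted p = 0.0387), at a list median of 0.083, a share below the 4.79% of all tested genes called higher. The call of nhr-210 ended in 9 of 24 alternatives, among them without the long-depleted libraries (3.26, adjusted p = 0.0617). Transthyretin-related genes had 1 of 36 called higher, against 4.79% of all tested genes. It was ttr-33 (2.26 ± 0.52, adjusted p = 0.0146), a call that ended without copper-treated mutant replicate 2 (2.04) or untreated control replicate 3 (2.09). The list median was 0.023, and 0.39 without the long-depleted libraries. Hedgehog-related and patched-related genes had 1 of 20 called higher, ptr-23 (2.34 ± 0.50, adjusted p = 0.0105), against 4.79% of all tested genes, and molting genes 1 of 11, mup-4 (2.32 ± 0.64, adjusted p = 0.0407), a call that ended in 17 of 28 alternatives. Once the long-depleted class was left out, 7 of the 20 were higher, ptr-23 was not called (2.25, adjusted p = 0.0684) and mup-4 was at 1.35. Among 15 basement membrane genes 1 was called higher, against 4.79% of all tested genes. It was the perlecan gene unc-52 (1.04 ± 0.27, adjusted p = 0.0268), a call that ended in 9 of 28 alternatives. Among them were length offsets, where it was at 0.14 (adjusted p = 0.9).

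Genes of the pharyngeal gland were called higher in 2 of 5 tested, against 4.79% of all tested genes. The gene dod-6 had 48.8, 63.1, 76 and 69.4 CPM in the copper-treated mutant, against 26.6, 14.6, 32.6 and 29.8 CPM in the untreated control (1.32 ± 0.26, adjusted p = 0.00576). The other, phat-3, rose by 1.71 ± 0.46 (adjusted p = 0.0371), a call that ended in 11 of 28 alternatives. Without the long-depleted libraries dod-6 was at 2.03 and phat-3 at 1.06. The 1 tested marker of coelomocytes, cup-4, was near the floor in both groups, at 1.88 ± 1.28 CPM in the copper-treated mutant and 1.46 ± 0.705 CPM in the untreated control, and was not called.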
